A study of Mus musculus with 3 samples.

Results

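The levels of 10 genes of the stem cell niche of the testis were followed across cell types in 3 libraries: Gdnf, Gfra1, Ret, Kitl, Kit, Cxcl12, Cxcr4, Fgf2, Csf1 and Wnt5a. They were taken by gene symbol, and all 10 were among the 55450 genes of the count tables. Each library was a testis of mice made azoospermic with busulfan, an alkylating agent that kills dividing germ cells. The EXO library came from mice given blood exosomes of wild-type mice plus busulfan, the dEXO library from mice given blood exosomes of mice with an imbalanced gut microbiota plus busulfan, and the PBS library from mice given PBS plus busulfan. All groups therefore share busulfan, and no library without it is among the samples. Age, strain, dose, time and number of animals were not given in the sources used here.

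These genes encode signals between the somatic cells of the testis and its germ cells. GDNF, secreted by Sertoli and peritubular cells, binds GFRA1, which signals through the receptor tyrosine kinase RET and maintains spermatogonial stem cells. KIT ligand, the product of Kitl, acts on the receptor KIT, which differentiating spermatogonia need and which Leydig cells also carry. The chemokine CXCL12 acts on CXCR4 in homing and retention of stem cells, FGF2 and CSF1 are growth factors that act on spermatogonia or macrophages, and WNT5A is a ligand of noncanonical WNT signalling.

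On mouse build GRCm38 the genes lie as follows, with the gene identifiers of the count tables. The GDNF ligand and receptor genes are Gdnf (ENSMUSG00000022144) at chr15:7810846-7837575 on the plus strand, Gfra1 (ENSMUSG00000025089) at chr19:58235604-58455909 on the minus strand and Ret (ENSMUSG00000030110) at chr6:118151745-118197718 on the minus strand. The KIT pair is Kitl (ENSMUSG00000019966) at chr10:100015630-100100416 on the plus strand and Kit (ENSMUSG00000005672) at chr5:75574916-75656722 on the plus strand. The chemokine pair is Cxcl12 (ENSMUSG00000061353) at chr6:117168535-117181367 on the plus strand and Cxcr4 (ENSMUSG00000045382) at chr1:128588199-128592293 on the minus strand. The other ligands are Fgf2 (ENSMUSG00000037225) at chr3:37348346-37410108 on the plus strand, Csf1 (ENSMUSG00000014599) at chr3:107741048-107760469 on the minus strand and Wnt5a (ENSMUSG00000021994) at chr14:28504750-28527448 on the plus strand.

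The libraries held 10228 barcodes and 91787154 UMIs in EXO, 9760 barcodes and 96655663 UMIs in dEXO, and 5514 barcodes and 97253862 UMIs in PBS. The median barcode had 3144.5 UMIs in EXO, 2852 in dEXO and 7708 in PBS, so cells were deepest in PBS. After filters 9760 EXO, 8903 dEXO and 5261 PBS cells were used, and each pair of libraries shared 19 cell barcodes. With 1 library per group no difference has a replicate check, and no test between groups was made. Every interval below is an exact 95% interval for counting error only. Levels are CPM, the UMIs of a gene summed over a cell class and scaled by all UMIs of that class. Cell classes were named from markers that include none of the genes described, so "Leydig-like" and similar names stand for clusters with those markers. Of 24 clusters, 5 stayed unnamed. A difference was called past 2-fold when the gene had at least 50 UMIs over both libraries and the class at least 50 cells in each.

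Kitl, Cxcl12 and Csf1 were highest in stromal-like cells in all 3 libraries, although for Csf1 in EXO the interval overlapped that of peritubular myoid-like cells. Kit was highest in Leydig-like cells in all 3. Cxcr4 was highest in T- or NK-like cells in each library, although in dEXO and PBS its interval overlapped that of the next class. The clusters c16 among macrophages and c17 among T- or NK-like cells also carried Leydig markers. Those markers summed to 56375, 53733 and 47165 CPM in c16, and to 38647, 44024 and 30046 CPM in c17, for EXO, dEXO and PBS. In Leydig-like cells they summed to 72516, 63966 and 61496 CPM in the same order. In the main T- or NK-like cluster c10 they were at 1166, 959 and 927 CPM. Levels of Kit, Kitl, Cxcl12, Csf1 and Wnt5a in immune classes are therefore described by cluster where they are given.

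**Figure D1:**
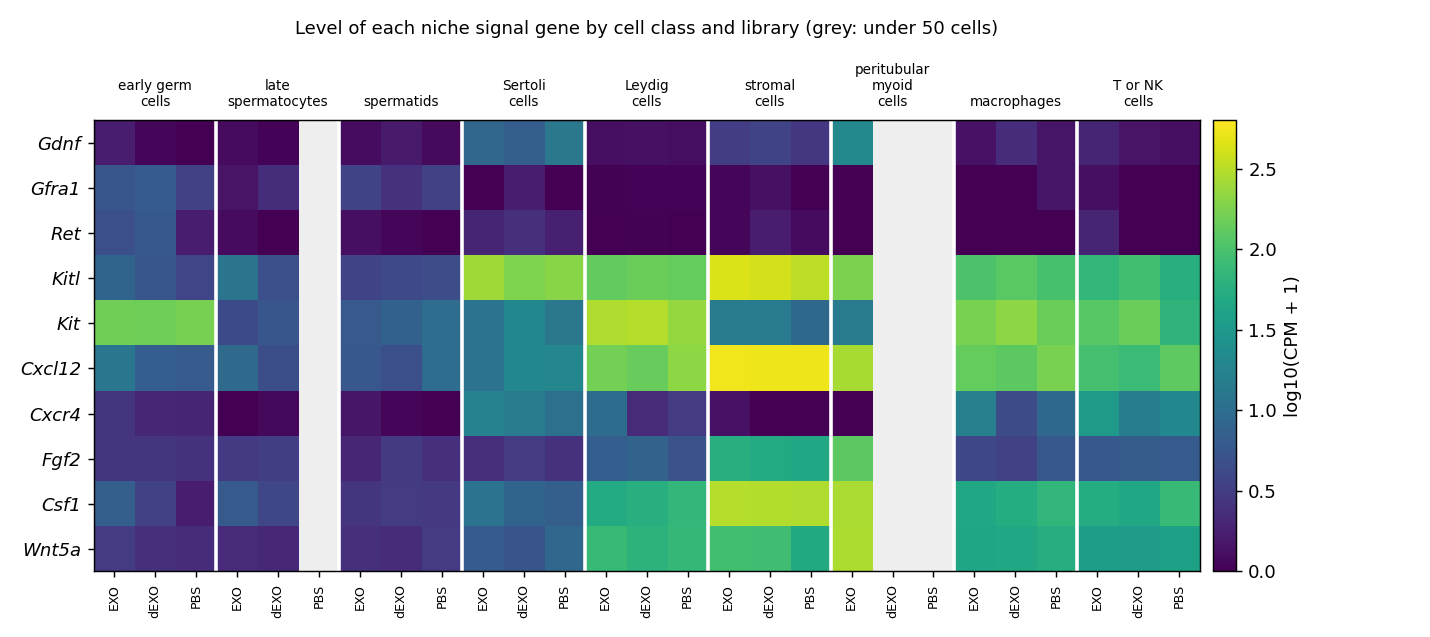
Level of each gene as log10(CPM + 1), colour, for the EXO, dEXO and PBS libraries in each of the 9 named classes; grey cells mark classes with under 50 cells in that library. The ligands Kitl, Cxcl12 and Csf1 are brightest in stromal-like cells, Kit in Leydig-like cells, and Gdnf, Gfra1 and Ret are low throughout.

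Gdnf was a rare message, with its highest levels among the classes of 50 or more cells in all libraries in Sertoli-like cells. Over all cells it had 99 UMIs in EXO, 84 in dEXO and 85 in PBS. Sertoli-like cells gave 7.46 CPM in EXO (16 UMIs in 226 cells), 6.11 CPM in dEXO (27 UMIs in 527 cells) and 11.995 CPM in PBS (16 UMIs in 80 cells). Their intervals, 4.26 to 12.1, 4.02 to 8.88 and 6.86 to 19.5 CPM, overlapped, so no difference was detectable at this depth. The stromal-like cluster c1, led by Ccn2 and Cyp26b1, gave 4.87, 6.25 and 8.81 CPM in EXO, dEXO and PBS. The other stromal-like clusters had at most 3 Gdnf UMIs in any library. In EXO, 3 UMIs in 68 peritubular myoid-like cells came to 19.7 CPM, with an interval of 4.06 to 57.5 CPM. That class had under 50 cells in dEXO and in PBS, with 0 Gdnf UMIs in each. The unnamed cluster c5, led by Tnnt2, Serpina3n and Cpz, had 3.19 CPM in EXO, 3.42 CPM in dEXO and 1.39 CPM in PBS, on 29, 8 and 24 UMIs. Its log2 ratio was 1.20 (interval 0.37 to 2.04) for EXO against PBS and 1.30 (-0.07 to 2.50) for dEXO against PBS. The unnamed cluster c19, led by Lockd and Mxd3, had 3.999 CPM in EXO, 3.33 CPM in dEXO and 8.62 CPM in PBS, on 4, 2 and 11 UMIs. In Leydig-like cells Gdnf stood at 0.307, 0.336 and 0.273 CPM.

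Among early germ cells the receptor genes Gfra1 and Ret were concentrated in the part c7.2. In this part all 8 markers of undifferentiated spermatogonia were higher than in the other early germ cells. Its leading genes also included Ccnd2, a listed marker of differentiating spermatogonia, and Kit was read in most of its cells, as given below. Whether c7.2 also holds differentiating spermatogonia was not tested. The part c7.2 held 54 of 404 early germ cells in EXO, 177 of 723 in dEXO and 44 of 112 in PBS. These are 13.4% (interval 10.2% to 17.1%), 24.5% (21.4% to 27.8%) and 39.3% (30.2% to 49.0%). Of the Gfra1 UMIs of early germ cells, c7.2 held 21 of 22 in EXO, 40 of 44 in dEXO and 8 of 8 in PBS. For Ret the numbers were 16 of 18 in EXO, 39 of 39 in dEXO and 2 of 2 in PBS. Of the Gfra1 UMIs of all cells, c7.2 held 28.0%, 37.0% and 23.5% and spermatids 62.7%, 33.3% and 44.1%, in EXO, dEXO and PBS. Late spermatocytes had 2 Gfra1 UMIs in EXO and 19 in dEXO. Both subunits were thus read in the cells with the spermatogonial markers.

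Within c7.2 the CPM of both receptor subunits was higher in the exosome libraries than in PBS. Gfra1, the GDNF-binding subunit, stood at 18.4 CPM in EXO, 11.6 CPM in dEXO and 5.04 CPM in PBS. Its log2 ratio was 1.87 (interval 0.63 to 3.25) for EXO against PBS and 1.20 (0.09 to 2.51) for dEXO against PBS. Ret, the signalling subunit, stood at 13.997 CPM in EXO, 11.3 CPM in dEXO and 1.26 CPM in PBS, the last from 2 UMIs. Its log2 ratio was 3.47 (1.38 to 6.64) for EXO against PBS and 3.16 (1.21 to 6.26) for dEXO against PBS. Between dEXO and EXO neither gene differed beyond counting error, with log2 ratios of -0.67 (-1.46 to 0.17) for Gfra1 and -0.31 (-1.18 to 0.63) for Ret. These UMIs came from few cells, 7 of EXO, 14 of dEXO and 3 of PBS for Gfra1 and 5, 17 and 2 for Ret. The shares of cells with a UMI had overlapping intervals. They were 13.0% (5.37% to 24.9%), 7.91% (4.39% to 12.9%) and 6.82% (1.43% to 18.7%) for Gfra1. For Ret they were 9.26% (3.08% to 20.3%), 9.60% (5.70% to 14.9%) and 4.55% (0.56% to 15.5%). The ratio intervals count each UMI as independent, also within a cell. The 44 PBS cells lie below the minimum of 50, and c7.2 was singled out after its values were seen, so these ratios are a description. The cells of c7.2 had a median of 17792 UMIs in EXO, 17931 in dEXO and 31512.5 in PBS. The mix of spermatogonia inside c7.2 in each library, and its part in these ratios, was not tested.

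Genes that GDNF is known to regulate in spermatogonia were read in the same cells. Etv5, a transcription factor of stem cell self-renewal, had 15.7 CPM in EXO, 12.7 CPM in dEXO and 6.93 CPM in PBS. Bcl6b, a transcriptional repressor, had 21.9 CPM in EXO, 6.08 CPM in dEXO and 3.78 CPM in PBS. Id4, a marker of the stem cell pool, had 21.9, 11.9 and 4.41 CPM, and Lhx1 had 6.998, 11.6 and 0.630 CPM, in EXO, dEXO and PBS. Nanos2, an RNA-binding protein of undifferentiated spermatogonia, had 4 UMIs in EXO, 8 in dEXO and 0 in PBS. The PBS values of Etv5, Bcl6b, Lhx1, Id4 and Nanos2 rest on 0 to 11 UMIs. The PBS interval of Etv5 was 3.46 to 12.4 CPM and overlapped that of EXO (9.33 to 24.9 CPM) and dEXO (9.26 to 17.1 CPM). For Bcl6b it was 1.39 to 8.23 CPM and overlapped that of dEXO (3.77 to 9.30 CPM), and Nanos2 also overlapped. For Id4 it was 1.77 to 9.09 CPM and overlapped that of dEXO (8.52 to 16.1 CPM). For Lhx1 it was 0.016 to 3.51 CPM and overlapped that of EXO (3.02 to 13.8 CPM). Pou3f1, with 94, 429 and 199 UMIs in EXO, dEXO and PBS, went the other way. It had 82.2 CPM (66.5 to 101) in EXO, 124 CPM (113 to 137) in dEXO and 125 CPM (109 to 144) in PBS. EXO was thus below PBS beyond counting error, while dEXO was level with PBS.

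Gfra1 and Ret were sometimes read in the same cell. In c7.2 both had a UMI in 4 of 54 cells in EXO, 8 of 177 in dEXO and 1 of 44 in PBS, where independence would give 0.648, 1.34 and 0.136 cells. No test was made of this difference. Gfra1 and Kit were together in 3 EXO, 3 dEXO and 2 PBS cells of c7.2, where independence would give 5.83, 11.5 and 2.73. Gfra1 was also read in spermatids, with 2.797 CPM (47 UMIs) in EXO, 1.49 CPM (36 UMIs) in dEXO and 2.57 CPM (15 UMIs) in PBS, nearly all of it in cluster c13. Ret had at most 1.36 CPM in Sertoli-like cells of any library.

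**Figure D2:**
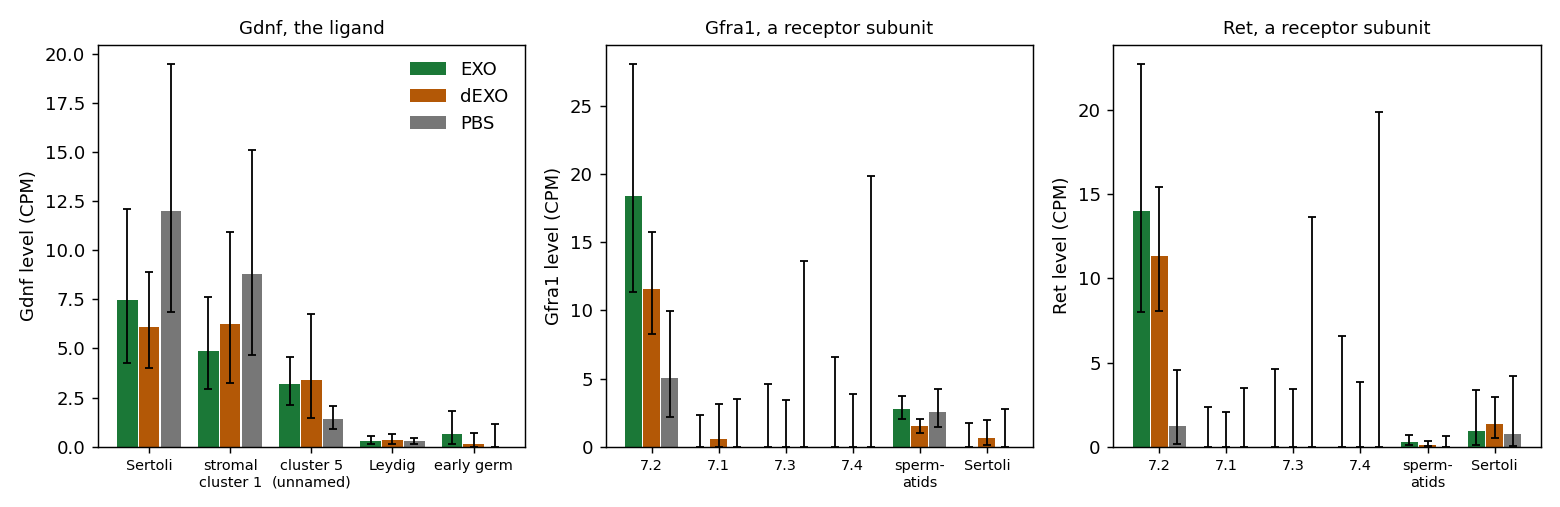
Gdnf, Gfra1 and Ret levels in CPM by cell class or cluster, with bars for EXO, dEXO and PBS and exact 95% intervals for counting error. Among the groups drawn, Gdnf is highest in Sertoli-like cells in EXO and PBS (7.46 and 11.995 CPM) and level with stromal-like cluster 1 in dEXO, while Gfra1 and Ret are highest in the spermatogonial part 7.2 (18.4, 11.6 and 5.04 CPM for Gfra1).

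Among other genes of the GDNF family, of 12 pairs of gene and class measured for EXO against PBS, 10 for dEXO against PBS and 17 for dEXO against EXO, 0 were past 2-fold. Over all genes 5.18%, 8.54% and 4.27% of pairs were past 2-fold in these comparisons. Nrtn, a related ligand, was highest in early germ cells at 53.7, 55.0 and 48.9 CPM in EXO, dEXO and PBS. Gfra4 was highest in late spermatocytes of EXO (53.0 CPM) and dEXO (51.2 CPM).

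Kitl was a message of stromal-like, Sertoli-like and Leydig-like cells, in that order in every library. Stromal-like cells gave 446 CPM in EXO, 413 CPM in dEXO and 328 CPM in PBS. Sertoli-like cells, the source of KIT ligand inside the tubule, gave 248, 182 and 199 CPM, and Leydig-like cells gave 133, 146 and 135 CPM. Within the stromal-like class Kitl was highest in cluster c6, led by Col15a1 and Igf1, at 605.5 CPM in EXO, 498 CPM in dEXO and 473 CPM in PBS. It was lowest in cluster c0 at 354, 323 and 261 CPM. Early germ cells had 6.92, 4.67 and 2.88 CPM.

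The stromal-like class was made of different clusters in the libraries. Cluster c1 held 1432 cells in EXO, 779 in dEXO and 256 in PBS, c0 held 1062, 730 and 1044, c2 held 1052, 622 and 384, and c6 held 752, 499 and 252. Ratios of Kitl, Cxcl12, Wnt5a and Fgf2 for this class are therefore given with those inside its clusters.

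In stromal-like cells Kitl had a log2 ratio to PBS of 0.44 (interval 0.38 to 0.51) in EXO and 0.33 (0.26 to 0.41) in dEXO. The median gene of this class itself moved by 0.26 for EXO and 0.24 for dEXO, so that relative to it the Kitl ratios were 0.18 and 0.09. Inside the clusters the Kitl ratios lay between 0.24 and 0.44 for EXO against PBS, and between 0.07 and 0.35 for dEXO against PBS, where the intervals of c2 and c6 included 0. In Sertoli-like cells the log2 ratio was 0.32 (0.10 to 0.53) in EXO and -0.13 (-0.33 to 0.08) in dEXO, each against PBS, and -0.44 (-0.60 to -0.28) for dEXO against EXO. Leydig-like cells were almost level, at -0.02 for EXO against PBS and 0.11 for dEXO against PBS. None of these reached 2-fold.

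Kit was a message of Leydig-like cells and of early germ cells. Leydig-like cells gave 292 CPM in EXO, 308 CPM in dEXO and 226 CPM in PBS and held 70.0% of all Kit UMIs in EXO, 72.1% in dEXO and 69.9% in PBS. Early germ cells gave 153 CPM in EXO, 152 CPM in dEXO and 168 CPM in PBS. In c7.2 Kit stood at 180, 194 and 199 CPM, and in 45 of 54, 146 of 177 and 40 of 44 cells. Macrophages showed 171, 209 and 147 CPM and T- or NK-like cells 118, 146 and 65.2 CPM, but these came from the clusters with Leydig markers. In c17 Kit was at 201, 232 and 105 CPM, against 9.45, 8.81 and 10.6 CPM in c10. In c16 it was at 226, 250 and 166 CPM, against 16.1, 40.8 and 20.2 CPM in c14.

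Leydig-like cells had more Kit in both exosome libraries than in PBS. The log2 ratio was 0.37 (interval 0.33 to 0.41) for EXO against PBS and 0.44 (0.40 to 0.48) for dEXO against PBS, and 0.34 and 0.33 relative to the median gene of the class. Different clusters held most of this class in the libraries. Cluster c3 held 775 cells in EXO, 53 in dEXO and 1081 in PBS, c4 held 245, 1526 and 24, and c9 held 668, 159 and 218. Kit was at 256, 198 and 226 CPM in c3, at 363, 306 and 193 CPM in c4 and at 320, 362 and 235 CPM in c9. In c9 both exosome libraries were therefore above PBS, while in c3 dEXO, with 53 cells, was below it by a log2 ratio of -0.19 (-0.44 to 0.06). Between dEXO and EXO the ratio was -0.25 (-0.33 to -0.16) in c4, -0.37 (-0.63 to -0.12) in c3 and 0.18 (0.07 to 0.29) in c9, so the clusters did not share a direction. Early germ cells as a class differed little in Kit. Their log2 ratio was -0.13 (-0.29 to 0.03) for EXO against PBS and -0.01 (-0.14 to 0.13) for dEXO against EXO. Inside the class dEXO was below EXO in the parts c7.0, c7.1 and c7.3. The ratios there were -0.968, -0.398 and -0.576, each beyond counting error. In c7.2 the ratio was 0.107 (-0.121 to 0.339). The share of c7.2 was larger in dEXO than in EXO, as given above, and its part in the class value was not tested.

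**Figure D3:**
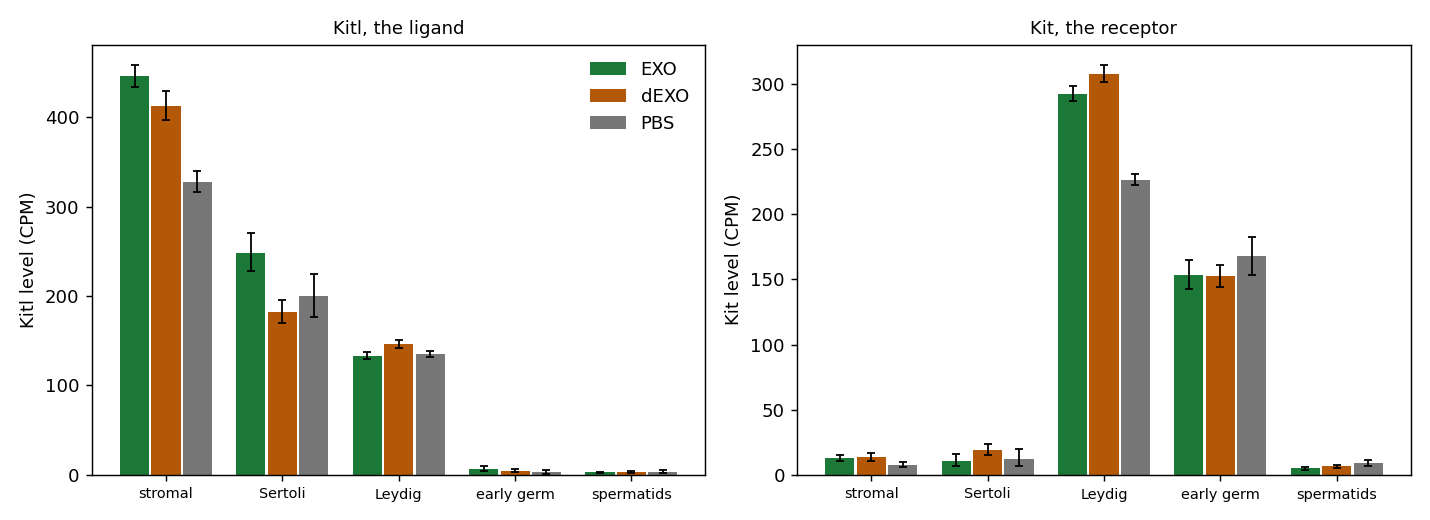
Kitl (left) and Kit (right) levels in CPM in 5 cell classes, with bars for EXO, dEXO and PBS and exact 95% intervals for counting error. Kitl is highest in stromal-like cells (446, 413 and 328 CPM) and Kit in Leydig-like cells (292, 308 and 226 CPM).

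Cxcr4 gave the clearest difference between libraries. Leydig-like cells had 8.84 CPM in EXO (288 UMIs), 1.23 CPM in dEXO (33 UMIs) and 2.08 CPM in PBS (99 UMIs). The log2 ratio was 2.09 (interval 1.75 to 2.43) for EXO against PBS, a 4.25-fold difference, -0.76 (-1.37 to -0.17) for dEXO against PBS and -2.84 (-3.41 to -2.32) for dEXO against EXO. Of all genes measured in Leydig-like cells, 6.07% were 2-fold or more higher in EXO than in PBS and 0.721% were 2-fold or more lower in dEXO than in EXO. The promoter of Cxcr4 and that of its ligand Cxcl12 are shown as the sequence context of this pair, each as the 250 bases before the RefSeq start on build GRCm38.p6. Cxcr4 lies on the minus strand at chr1:128592300-128592549 and Cxcl12 on the plus strand at chr6:117168285-117168534, and capitals mark matches to the GC box GGGCGG or the TATA box TATAAA on either strand.
Cxcr4: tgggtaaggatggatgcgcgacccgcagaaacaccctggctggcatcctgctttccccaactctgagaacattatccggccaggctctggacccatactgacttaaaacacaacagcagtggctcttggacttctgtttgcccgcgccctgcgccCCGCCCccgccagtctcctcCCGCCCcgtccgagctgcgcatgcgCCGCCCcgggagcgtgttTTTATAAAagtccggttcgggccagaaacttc
Cxcl12: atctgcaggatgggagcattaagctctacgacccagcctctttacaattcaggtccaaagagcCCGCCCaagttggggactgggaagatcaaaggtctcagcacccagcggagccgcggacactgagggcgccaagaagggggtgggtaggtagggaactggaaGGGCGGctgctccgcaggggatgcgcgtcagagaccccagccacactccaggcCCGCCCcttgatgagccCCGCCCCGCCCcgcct
Cxcr4 held 3 GC box matches and 2 overlapping TATA box matches, and Cxcl12 held 5 GC box matches, of which a pair overlap. Over 32851 promoter windows of this length 32.7% held a GC box and 12.4% a TATA box match. Neither window matched the CCAAT box, the E box CACGTG or the CRE TGACGTCA.

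The higher Cxcr4 of EXO was seen in each Leydig-like cluster and in the unnamed cluster c5, which also carries Leydig markers. In c3 it was at 6.66 CPM in EXO, 1.503 CPM in dEXO and 2.10 CPM in PBS. In c9 it was at 10.6, 0.932 and 1.76 CPM. In c4 it was at 12.6, 1.25 and 4.23 CPM, the last from 24 PBS cells. In c5 it was at 18.1, 1.28 and 3.24 CPM. EXO was above both other libraries in all 4 clusters, although the interval of the single dEXO UMI in c3 and that of the 3 PBS UMIs in c4 overlapped that of EXO. Stromal-like cells, the lowest class in dEXO and PBS, had 4 UMIs in EXO, 0 in dEXO and 0 in PBS. Late spermatocytes had 0 in EXO, and spermatids had 8 in EXO and 0 in PBS. As the lowest class is picked by its count, it does not measure free RNA in Leydig-like cells.

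T- or NK-cell markers were at 1.76 CPM in the 232 EXO Leydig-like cells with a Cxcr4 UMI and at 2.44 CPM in the 1456 without one. In dEXO they were at 0 CPM in the 33 cells with one and 2.91 CPM in the rest, and in PBS at 5.93 CPM in the 87 cells with one and 1.07 CPM in the rest. Leydig markers were at 70530 CPM in the EXO cells with a Cxcr4 UMI and at 72886 CPM in those without. A Cxcr4 UMI was found in 13.7% of EXO Leydig-like cells, 1.90% of dEXO and 6.58% of PBS ones, at median depths of 18676, 14442 and 34583 UMIs per cell. In stromal-like cells the shares were 0.0931% in EXO at a median of 2442 UMIs, 0 of 2630 cells in dEXO, which allows up to 0.114%, and 0 of 1936 in PBS, which allows up to 0.155%. After every cell was thinned to 1000 UMIs, 1.25%, 0.173% and 0.227% of Leydig-like cells in EXO, dEXO and PBS had a Cxcr4 UMI.

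Among immune cells the T- or NK-like cluster c10 had 51.0 CPM of Cxcr4 in EXO, 26.4 CPM in dEXO and 40.3 CPM in PBS, on 54, 18 and 42 UMIs. For T- or NK-like cells as a whole the log2 ratio was -1.14 (interval -1.75 to -0.56) for dEXO against EXO. It was 0.66 (0.18 to 1.14) for EXO against PBS and -0.48 (-1.13 to 0.14) for dEXO against PBS. Of these UMIs, c17 with its Leydig markers held 42 of 98 in EXO, 14 of 34 in dEXO and 16 of 63 in PBS. In c10 alone the ratio was -0.95 (-1.81 to -0.16) for dEXO against EXO and 0.34 (-0.27 to 0.96) for EXO against PBS. In c17 these were -1.31 (-2.30 to -0.41) and 1.37 (0.51 to 2.30). Macrophages differed by 1.04 (0.34 to 1.74) for EXO against PBS, with 32 of 40 EXO UMIs in c16, and c14 alone had 8 UMIs in EXO and 5 in PBS. Sertoli-like cells had 16.3 CPM in EXO, 12.9 CPM in dEXO and 9.75 CPM in PBS, with overlapping intervals. Early germ cells, which include the spermatogonia that CXCL12 acts on, had 8, 8 and 3 UMIs, too few to compare.

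**Figure D4:**
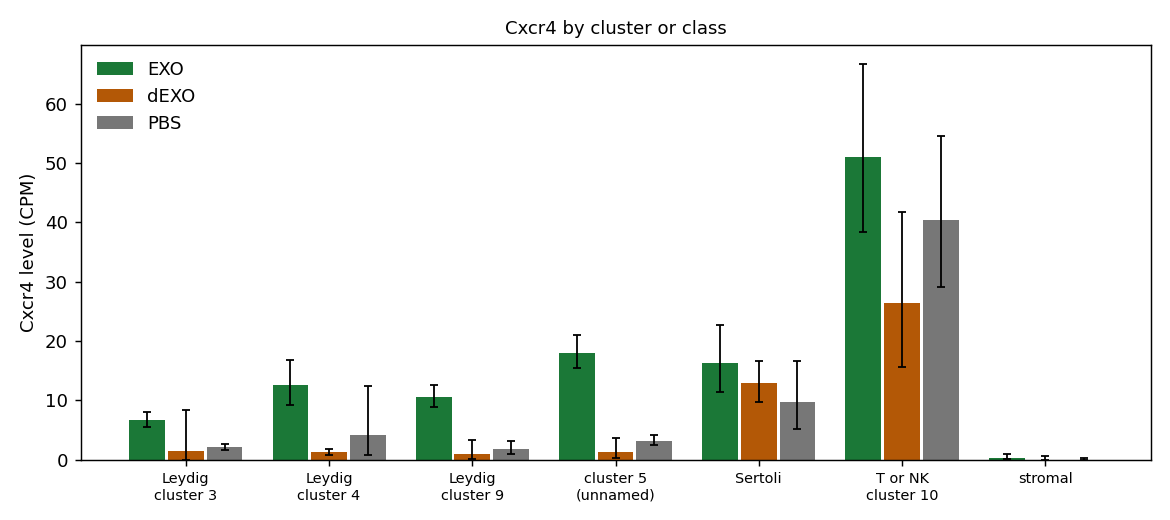
Cxcr4 level in CPM in the Leydig-like clusters 3, 4 and 9, the unnamed cluster 5, Sertoli-like cells, the T- or NK-like cluster 10 and stromal-like cells, with bars for EXO, dEXO and PBS and exact 95% intervals for counting error. The EXO bar is the highest in each Leydig-like cluster and in cluster 5 (18.1, 1.28 and 3.24 CPM), and stromal-like cells are near 0.

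Cxcl12 itself was almost level over the stromal-like class, in which it was highest, but not inside all of its clusters. They had 552 CPM in EXO, 540 CPM in dEXO and 540 CPM in PBS. The log2 ratio was 0.03 (interval -0.02 to 0.08) for EXO against PBS and -0.03 (-0.09 to 0.03) for dEXO against EXO. Relative to the median gene of the class, the value for EXO against PBS turned to -0.23 and that for dEXO against PBS was -0.24. Inside the clusters the ratio for EXO against PBS was 0.32 (0.24 to 0.41) in c0, 0.03 (-0.14 to 0.20) in c1, 0.39 (0.26 to 0.52) in c2 and 0.13 (0.02 to 0.25) in c6. For dEXO against PBS it was 0.19, -0.05, 0.23 and 0.19 in the same clusters. Levels differed more between clusters than between libraries, with 867, 901 and 790 CPM in c6 and 275, 261 and 270 CPM in c1 for EXO, dEXO and PBS. Leydig-like cells had 165 CPM in EXO, 142 CPM in dEXO and 209 CPM in PBS, with log2 ratios of -0.34 (-0.39 to -0.30) for EXO against PBS and -0.56 (-0.62 to -0.51) for dEXO against PBS. In cluster c9 it had 140 CPM in EXO, 87.6 CPM in dEXO and 148 CPM in PBS.

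Ackr3, the other receptor of CXCL12, which scavenges it, had 42.1 CPM in EXO, 28.0 CPM in dEXO and 34.3 CPM in PBS in stromal-like cells. In Leydig-like cells it had 3.68 CPM in EXO, 1.76 CPM in dEXO and 5.43 CPM in PBS. The log2 ratio in Leydig-like cells was -1.63 (-2.11 to -1.17) for dEXO against PBS and -1.07 (-1.59 to -0.57) for dEXO against EXO. These ratios are for the whole class, and the part of its differing clusters in them was not tested. In Sertoli-like cells Ackr3 was higher in EXO (46 UMIs) than in PBS (11 UMIs), by a log2 ratio of 1.38 (0.41 to 2.48).

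Wnt5a was higher in the stromal-like cells of both exosome libraries than in those of PBS, by less inside the clusters than over the class. It had 89.1 CPM in EXO, 87.4 CPM in dEXO and 49.5 CPM in PBS. For the class as a whole the log2 ratio was 0.85 (interval 0.69 to 1.01) for EXO against PBS and 0.82 (0.64 to 1.00) for dEXO against PBS, and 0.59 and 0.58 relative to the median gene of the class. Between dEXO and EXO it was -0.03 (-0.18 to 0.13). Inside each stromal-like cluster the difference from PBS was smaller. For EXO against PBS the log2 ratio was 0.67 (0.33 to 1.01) in c0, 0.44 (0.17 to 0.72) in c1, 0.33 (0.00 to 0.66) in c2 and 0.67 (0.20 to 1.16) in c6. For dEXO against PBS it was 0.69 (0.28 to 1.08) in c0, 0.41 (0.10 to 0.71) in c1, 0.53 (0.17 to 0.89) in c2 and 0.48 (-0.06 to 1.03) in c6. The class value thus also holds the larger share of c1, the cluster highest in Wnt5a, in the exosome libraries. In c1, where Wnt5a was highest, it was at 132, 129 and 96.9 CPM in EXO, dEXO and PBS. In c0 it was at 50.8, 51.6 and 32.0 CPM, in c2 at 80.1, 92.0 and 63.9 CPM, and in c6 at 67.9, 59.6 and 42.6 CPM. PBS was the lowest library in all 4 clusters, although its interval overlapped that of EXO in c2 and that of dEXO in c1 and c6.

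Leydig-like cells showed no such difference in Wnt5a, with 75.4 CPM in EXO, 63.0 CPM in dEXO and 72.6 CPM in PBS. The highest level was in peritubular myoid-like cells of EXO, at 282 CPM from 43 UMIs in 68 cells. The same cluster had 127 CPM in dEXO and 241 CPM in PBS, on 38 and 49 cells. Among other WNT genes, Sfrp1, which binds and restrains WNT ligands, was higher in stromal-like cells in EXO (26.6 CPM) and dEXO (18.8 CPM) than in PBS (8.65 CPM). Its log2 ratio was 1.62 (1.27 to 1.99) for EXO against PBS and 1.12 (0.70 to 1.54) for dEXO against PBS. The median gene of the class moved by 0.26 and 0.24 in these comparisons. Sfrp1 is given over the class only, and the part of the differing clusters in its ratios was not tested. Fzd2, a WNT receptor, was lower in Leydig-like cells in dEXO (1.08 CPM) than in PBS (7.09 CPM), by a log2 ratio of -2.71 (-3.31 to -2.16). For EXO (2.76 CPM) against PBS it was -1.36 (-1.71 to -1.02). These Fzd2 values are for the whole class. Its clusters differed in share between libraries, as given above, and their part in the ratios was not tested. Of the WNT list 54, 55 and 64 pairs of gene and class were measured for EXO against PBS, dEXO against PBS and dEXO against EXO. Past 2-fold were 2 higher and 2 lower, 3 higher and 3 lower, and 0 higher and 1 lower, in that order. The share over all genes in either direction was 5.18%, 8.54% and 4.27%.

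**Figure D5:**
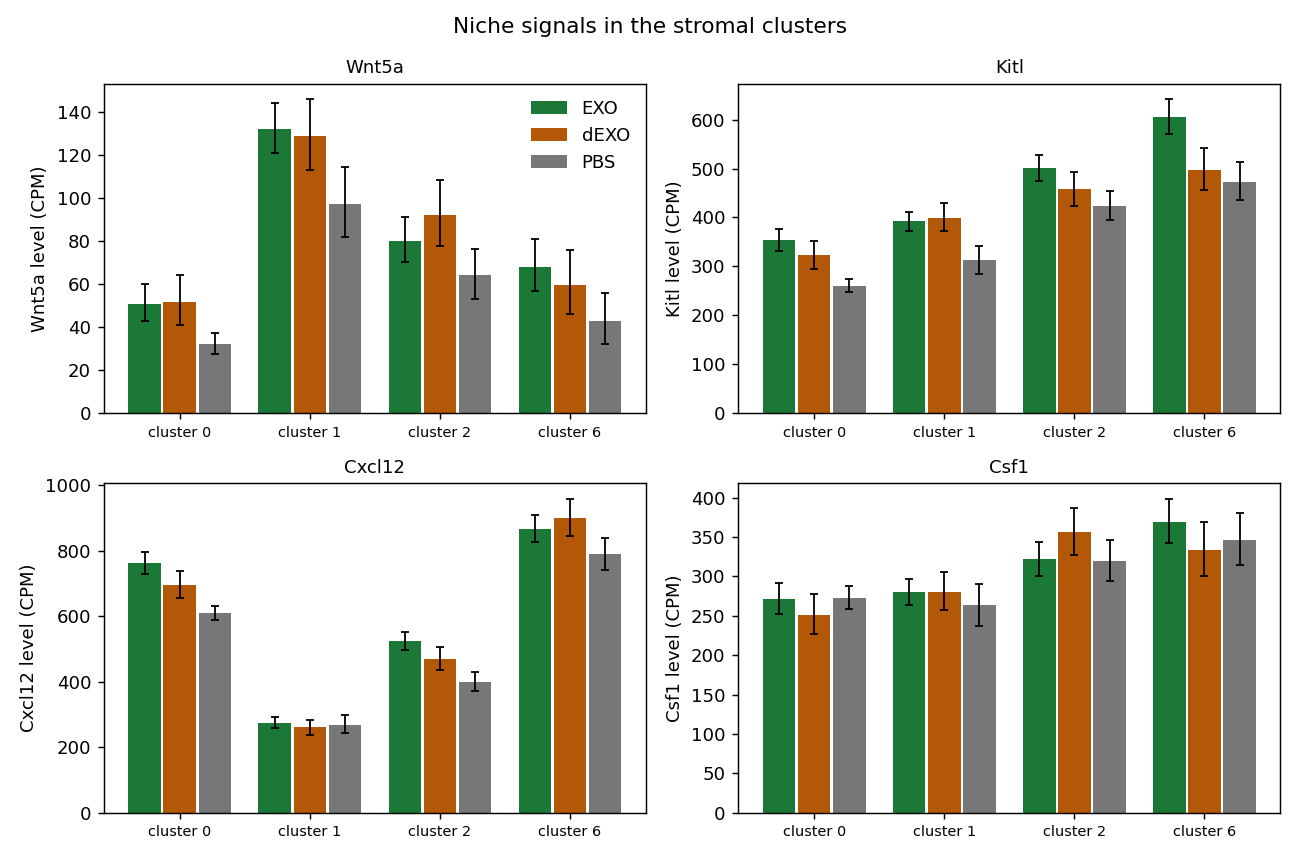
Wnt5a, Kitl, Cxcl12 and Csf1 levels in CPM in the stromal-like clusters 0, 1, 2 and 6, with bars for EXO, dEXO and PBS and exact 95% intervals for counting error. Wnt5a is lowest in PBS in every cluster (132, 129 and 96.9 CPM in cluster 1 for EXO, dEXO and PBS), while Csf1 shows no common order.

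Csf1, the growth factor of macrophages, came from stromal-like cells at 303 CPM in EXO, 302 CPM in dEXO and 290 CPM in PBS. Its log2 ratio was 0.07 (interval -0.01 to 0.14) for EXO against PBS, which turned to -0.20 relative to the median gene. In Leydig-like cells Csf1 was lower in the exosome libraries, at 50.2 CPM in EXO, 57.1 CPM in dEXO and 70.2 CPM in PBS. The log2 ratios there were -0.48 (-0.57 to -0.40) for EXO against PBS and -0.30 (-0.39 to -0.21) for dEXO against PBS. In cluster c9 they were -0.23 (-0.40 to -0.06) and 0.00 (-0.28 to 0.27), so for dEXO no difference was seen there. Csf1r, its receptor, was read in macrophages at 195 CPM in EXO, 189 CPM in dEXO and 199 CPM in PBS and was under 1 CPM in stromal-like, Leydig-like and early germ cells.

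Fgf2 was a stromal message with 56.3 CPM in EXO, 50.5 CPM in dEXO and 47.0 CPM in PBS. Its log2 ratio for EXO against PBS was 0.26 (interval 0.09 to 0.44), which is close to 0 relative to the median gene of the class. Inside the clusters it was -0.01 (-0.42 to 0.39) in c0, 0.29 (-0.05 to 0.64) in c1, -0.25 (-0.59 to 0.10) in c2 and -0.43 (-0.88 to 0.02) in c6, so no cluster differed beyond counting error. Fgf2 was highest in c1 in EXO and dEXO, at 77.9 and 68.2 CPM. In Leydig-like cells it was low, at 5.93, 6.73 and 4.25 CPM, with a log2 ratio of 0.66 (0.36 to 0.96) for dEXO against PBS over the class. Inside the clusters that ratio was 0.12 (-1.01 to 1.15) in c9 and -1.47 (-6.78 to 1.03) in c3, on 11 and 1 dEXO UMIs, so no difference was detectable there. Peritubular myoid-like cells of EXO had 125 CPM from 19 UMIs. Fgfr1, a receptor of FGF2, was highest in stromal-like cells of dEXO and PBS, at 264 and 225 CPM. In the FGF list 0 of 17, 0 of 16 and 0 of 19 pairs were past 2-fold in EXO against PBS, dEXO against PBS and dEXO against EXO. The shares over all genes were 5.18%, 8.54% and 4.27%, so nothing is read from the lack of calls among so few pairs.

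Counted over all named classes, few pairs of gene and class were past 2-fold. For EXO against PBS 32 of 70 pairs were measured, of which 3 were higher in EXO and 0 lower, against a background over all genes of 5.18% past 2-fold in either direction, 4.06% higher and 1.12% lower. They were Cxcr4 in Leydig-like cells and in macrophages, and Cxcl12 in early germ cells. For Cxcl12 30 of the 55 EXO UMIs came from c7.5, a part with 22 EXO cells that also carried stromal genes. For dEXO against PBS 37 pairs were measured, of which 2 were higher and 1 lower, against 8.54% over all genes in either direction, 7.36% higher and 1.18% lower. They were Gfra1 in early germ cells at 1.12 (interval 0.02 to 2.42), Kit in T- or NK-like cells at 1.16 (0.91 to 1.42) and Cxcl12 in spermatids at -1.21 (-1.71 to -0.69). Without c17 the Kit value was -1.03, on 7 UMIs in dEXO and 22 in PBS.

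For dEXO against EXO 45 of 80 pairs were measured, of which 0 were higher and 4 lower, against 4.27% over all genes in either direction, 3.66% higher and 0.613% lower. They were Cxcr4 in Leydig-like and in T- or NK-like cells, and Kitl and Cxcl12 in late spermatocytes. In the T- or NK-like cluster c10 alone the Cxcr4 value was -0.95, under 2-fold. In late spermatocytes Kitl had 3.80 CPM in dEXO and 10.9 CPM in EXO, and Cxcl12 had 3.73 CPM in dEXO and 8.30 CPM in EXO. Stromal markers in those cells summed to 93.1 CPM in dEXO and 252 CPM in EXO, and their part in the result was not tested. The median log2 ratio over the measured pairs was 0.09 for EXO against PBS, 0.05 for dEXO against PBS and -0.03 for dEXO against EXO. The median over all genes in these classes was 0.03, 0.09 and 0.04.

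Of all partner genes listed for these pathways, 3 pairs of gene and class were higher and 3 lower of 99 measured for EXO against PBS, 8 higher and 4 lower of 100 for dEXO against PBS, and 5 higher and 2 lower of 124 for dEXO against EXO. The background over all genes was 5.18%, 8.54% and 4.27% in either direction, and nothing is read from the excess or lack of so few calls. Id4, listed as a gene that GDNF regulates in spermatogonia, was higher in Leydig-like cells in dEXO (46 UMIs) than in EXO (17 UMIs). The log2 ratio was 1.72 (interval 0.89 to 2.61), and a GDNF response in these cells was not tested. In stromal-like cells Id4 had 10.1 CPM in dEXO and 3.64 CPM in EXO, a ratio of 1.47 (0.88 to 2.08). Lhx1, a LIM homeobox factor, had 5.30 CPM in early germ cells in dEXO and 1.89 CPM in EXO, with 1.49 (0.43 to 2.71). Pou3f1, a POU-domain transcription factor, had 27.3 CPM in early germ cells in EXO, 61.9 CPM in dEXO and 70.6 CPM in PBS. The share of early germ cells in c7.2 also differed between libraries, as given above, and its part in the result was not tested. Among WNT genes, Wnt6 had 11.3 CPM in early germ cells in EXO and 4.15 CPM in PBS, and Sfrp1 had 5.64 CPM in Leydig-like cells in dEXO and 1.70 CPM in PBS. The Id4 and Sfrp1 values here are for whole classes. The clusters of those classes differed in share between libraries, as given above, and their part in these values was not tested.

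Over all cells of a library, Cxcl12 followed the order it had in Leydig-like cells, not that in stromal-like cells. It had 172 CPM in EXO, 95.6 CPM in dEXO and 226 CPM in PBS. Stromal-like cells made up 44.0% of the cells in EXO, 29.5% in dEXO and 36.8% in PBS, and Leydig-like cells 17.3%, 19.5% and 25.1%. Of the Cxcl12 UMIs, stromal-like cells held 40.2%, 37.1% and 24.1% and Leydig-like cells 34.7%, 42.5% and 45.7%, in EXO, dEXO and PBS. In such sums fewer cells of a type and less RNA per cell cannot be told apart.

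Over the 24 points of library and class with at least 50 cells, the gene whose log2(CPM + 1) was most like that of Kitl was Mmd2 (Pearson r 0.992). For Kit it was Igfbp2 (0.989), for Cxcl12 Ecm1 (0.992), for Csf1 Serping1 (0.992), for Fgf2 Fam198a (0.980) and for Wnt5a Mr1 (0.991). Cxcr4 had the weakest best match, Elmo1 (0.918). The points of a class share their cell type and those of a library its depth, so these values are descriptions over 18736 genes. Gdnf, Gfra1 and Ret had under 50 UMIs in their highest class and were not compared.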

How the data were processed

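The labels give testis as the tissue of all 3 libraries, while their protocol text describes dissecting aorta; germ, Sertoli and Leydig markers were found in each library. Per the labels' protocols, cells were captured with the 10x 3' V3 chemistry. The deposited values are raw UMI counts per gene and cell. The matrix headers name Cell Ranger 5.0.1 as the program the authors used, per the file headers, while Seurat and GRCm38 appear in the submitters' processing notes. A barcode was used when it had 500 or more UMIs, 300 or more genes and a mitochondrial share of 20% or less. Scrublet with its automatic threshold called 1.03% of EXO, 2.37% of dEXO and 0.190% of PBS cells, so it did not work in PBS, and doublets remain. Cells were clustered with scanpy 1.11.5 (2000 variable genes without the genes described or their partners, 30 components, 15 neighbours, Leiden resolution 1), and the early germ cluster was divided again at resolution 0.5. Counts were summed per class and library. Intervals are exact Poisson for levels, exact conditional binomial for ratios and Clopper-Pearson for shares. A count of 0 is given the limit of 3 counts. Scripts were tested on simulated data. The 10 genes, the gene lists and the tests were chosen with earlier results of these data known. Partner genes named are the 3 with the largest ratio past 2-fold in each comparison and others of the lists singled out after their values were seen, as was c7.2. Promoters came from RefSeq, which matched 8 of the 10 genes.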

Additional observations from a re-analysis of the deposited data

How the results depend on the processing

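No paired analysis was possible because each group had 1 library. The pairs of gene and class past 2-fold numbered 3 for EXO against PBS, 3 for dEXO against PBS and 4 for dEXO against EXO. In the same order they numbered 5, 8 and 10 with each cell counted equally, and 0, 0 and 0 with cells thinned to 1000 UMIs. With 20 UMIs as the minimum they were 6, 6 and 7 of 49, 49 and 56 measured. With no minimum they were 9, 9 and 17 of 59, 59 and 71. At 1.5-fold they were 10, 12 and 11 of 32, 37 and 45. The shares over all genes given above are for the main rule only, so these counts are not set against them. Resolution 0.5 gave 5 for EXO against PBS and resolution 2 gave 6 for dEXO against PBS. With no doublet removed there were 5 for EXO against PBS and 7 for dEXO against PBS, and with the highest doublet scores removed 5 for dEXO against PBS and 7 for dEXO against EXO. Directions also moved. With those scores removed, 1 was higher and 2 lower for EXO against PBS, and 3 higher and 4 lower for dEXO against EXO. With each cell counted equally, 4 were higher and 6 lower for dEXO against EXO. Relative to the median gene, 3 stayed higher and 0 lower for EXO against PBS, and 0 higher and 5 lower for dEXO against EXO. Without c16, c17 and c7.5, a choice made after seeing the data, 1 remained past 2-fold for EXO against PBS. After thinning, only 13, 12 and 16 pairs still had the 50 UMIs needed for a call, so these counts of 0 do not show that differences were lost. These values turned sign: Cxcl12 in early germ cells for EXO against PBS to -1.21 and Cxcr4 in macrophages to -0.45 when thinned, Cxcl12 in spermatids for dEXO against PBS to 0.87 with each cell equal, and Kit in T- or NK-like cells to -1.03 without those clusters. The cause was not tested. The sign of 55 of 114 values, and of 6 of the 10 past 2-fold, held in every alternative. Cxcr4 in Leydig-like cells stayed between 1.90 and 2.46 for EXO against PBS and between -3.01 and -2.63 for dEXO against EXO.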
